A study of Homo sapiens with 3 samples.

Results

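The cardiac T-box genes examined here were *TBX1*, *TBX2*, *TBX3*, *TBX5*, *TBX18* and *TBX20*, taken by name, 6 of the 25447 genes with an annotated transcript start in a promoter fragment listed with interactions in this data set. Promoter capture Hi-C (PCHi-C) crosslinks chromatin, cuts it with HindIII and enriches ligation products for fragments that carry a promoter, so that each interaction joins a promoter fragment to a promoter-interacting region (PIR), which is another HindIII fragment. It was run on 3 biological replicates of a single condition, hESC-CMs, which are cardiomyocytes made from monolayers of WA09 (H9), an established human embryonic stem cell line, with a commercial differentiation kit and then enriched in lactate medium without glucose. All 3 replicates share this unmodified line and protocol, no other cell type or treatment was compared, and purity was checked by the authors, with MYH7 and TNNT2 given as markers in the labels. Gene expression was not analysed here, so the cell type was not tested against its markers. Nothing states that the replicates came from separate differentiations, and their spread may be partly technical. The cells were assayed in bulk, so a contact present in few cells and a weak contact present in many cannot be told apart.

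The T-box family consists of transcription factors that bind DNA through a shared domain, the T-box, and several of its members act together in heart development. TBX5 and TBX20 help to drive genes of the working myocardium, and loss of 1 copy of *TBX5* causes Holt-Oram syndrome, with defects of heart and limb. TBX2 and TBX3 are repressors that keep the atrioventricular canal and the conduction system from taking on a chamber programme. TBX18 acts in the sinus venosus and the epicardium, and TBX1 in the progenitors of the outflow tract and the pharyngeal arches, where its loss contributes to DiGeorge syndrome. Genes of this kind are often regulated by enhancers far from their promoters, and PCHi-C records which distant fragments were close to a promoter.

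An interaction is given with its CHiCAGO score, which rises with the excess of read pairs over a background set by distance and technical noise, and only scores of 5 or more are listed. An interaction missing from a replicate therefore scored below 5 there and was not shown to be absent. Scores with different promoters were taken against different backgrounds and do not rank the strength of their contacts. Replicates 1, 2 and 3 listed 112473, 109731 and 110740 interactions, with median scores of 6.63, 6.64 and 6.65, and read depth is unknown from these files. The union of the replicates held 200587 interactions from 19075 promoter fragments, with a median of 6.00 per fragment.

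Each T-box gene had interactions listed from 1 promoter fragment. The list of captured fragments was not used here, so a fragment without listed interactions may or may not have been captured. The promoter windows of *TBX1*, *TBX18* and *TBX20* are shown as examples of these starting points. They were read from GRCh37 5′ to 3′ on the strand of the gene, with 150 bases before the transcript start in lower case and the first 20 transcribed bases in capitals. The start is that of the MANE Select transcript, the reference transcript agreed between annotation projects, except for *TBX1*, whose MANE Select start at 19748301 lies outside the listed fragment, which holds 1 of 6 annotated starts of the gene. The windows lie at chr22:19744076-19744245 (plus strand) for *TBX1*, chr6:85474297-85474466 (minus) for *TBX18* and chr7:35293692-35293861 (minus) for *TBX20*.
TBX1 promoter: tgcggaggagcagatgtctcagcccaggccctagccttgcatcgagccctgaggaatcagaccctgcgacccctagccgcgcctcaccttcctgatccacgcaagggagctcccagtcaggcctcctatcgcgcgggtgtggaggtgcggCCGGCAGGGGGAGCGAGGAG
TBX18 promoter: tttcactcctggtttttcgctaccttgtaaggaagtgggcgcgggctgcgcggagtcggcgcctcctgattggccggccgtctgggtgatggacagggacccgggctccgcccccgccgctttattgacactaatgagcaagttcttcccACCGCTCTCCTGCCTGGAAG
TBX20 promoter: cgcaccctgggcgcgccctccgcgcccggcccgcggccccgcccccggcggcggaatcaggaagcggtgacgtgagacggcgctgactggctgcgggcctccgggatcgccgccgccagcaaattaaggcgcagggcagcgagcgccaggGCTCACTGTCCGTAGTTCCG
GC content was 67.6% in the *TBX1* window, 62.4% in the *TBX18* window and 75.9% in the *TBX20* window, which held 12, 14 and 26 CpG dinucleotides. Neither the T-box element AGGTGTGA, nor the GATA element AGATAA, nor the core of the CTCF motif, searched as 12 letters with 4 of them free, was present on either strand of these 3 windows. Among 18922 MANE Select promoter windows of this length, 0.470%, 3.58% and 1.70% held these motifs.

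The central bases of the highest-scoring PIR are shown for the 4 genes whose best PIR scored highest, on the plus strand of GRCh37, with the GATA element in capitals. They lie at chr17:59086211-59086410 for *TBX2*, in an intron of *BCAS3*, at chr12:116192894-116193093 for *TBX3*, at chr6:85133394-85133593 for *TBX18*, in the lncRNA gene *LINC01611*, and at chr7:35578100-35578283 for *TBX20*, in no annotated gene, where 184 bases are the whole fragment.
TBX2 PIR: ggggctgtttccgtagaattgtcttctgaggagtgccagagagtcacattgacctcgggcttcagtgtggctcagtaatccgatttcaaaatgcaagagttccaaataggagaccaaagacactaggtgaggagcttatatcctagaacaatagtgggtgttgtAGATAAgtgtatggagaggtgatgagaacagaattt
TBX3 PIR: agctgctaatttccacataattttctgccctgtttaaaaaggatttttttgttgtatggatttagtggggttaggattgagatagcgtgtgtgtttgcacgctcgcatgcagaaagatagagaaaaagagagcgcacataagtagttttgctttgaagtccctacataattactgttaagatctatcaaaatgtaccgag
TBX18 PIR: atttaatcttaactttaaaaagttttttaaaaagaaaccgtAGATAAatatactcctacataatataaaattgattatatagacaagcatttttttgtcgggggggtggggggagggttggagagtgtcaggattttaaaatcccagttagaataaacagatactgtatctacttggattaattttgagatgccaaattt
TBX20 PIR: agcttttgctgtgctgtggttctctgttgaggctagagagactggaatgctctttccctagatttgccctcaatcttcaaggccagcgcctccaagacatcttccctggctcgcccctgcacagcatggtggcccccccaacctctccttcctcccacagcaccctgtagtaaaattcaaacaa
The GATA element occurred once in the *TBX2* window and once in the *TBX18* window. The corresponding windows of *TBX1* and *TBX5*, which are not shown, held none of the searched motifs. The GATA element was held by 15.0% of 105604 windows of 200 bases at the centre of interacting fragments outside the T-box PIRs and the promoter fragments. Over all 72 PIRs that the T-box genes had in every replicate, the T-box element occurred 9.46 times, the GATA element 90.6 times and the CTCF core 3.60 times per 100 kb. The densities were 10.2, 81.0 and 3.63 per 100 kb in 107913 interacting fragments that were neither T-box PIRs nor listed promoter fragments, with a GC content of 40.8% in the T-box PIRs and 41.9% in the others. Occurrences of different motifs did not overlap. These matches describe the letters of the fragments only.

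The 6 promoters had 153 interactions in the union, with 112, 108 and 110 in replicates 1, 2 and 3 (110 ± 2.00, mean ± SD, n = 3). Every replicate held 72 of these, while 33 appeared in exactly 2 replicates and 48 in a single one. The share in all 3 was 47.1% (95% Wilson interval 39.3 to 54.9%, which covers counting error only), beside 24.0% over all interactions. Interactions called once were mostly weak, with a median score of 5.48, but they reached 12.1. The 72 interactions found in every replicate had a median mean score of 8.93, against 8.32 over all such interactions, and a median SD of 13.2% of the mean, against 14.8%.

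All but 1 of the interactions were on the chromosome of the gene, while 3.87% of those of the series joined different chromosomes. At most 1000 kb were spanned by 135 of the 152 on the same chromosome. Over the series, 35265 interactions spanned less than 250 kb, 41147 spanned 250 to 500 kb and 35302 spanned 500 to 1000 kb. The series held 200587 interactions, of which 7755 joined different chromosomes. The median distance between fragment midpoints was 357 kb, shorter than the 716 kb over the series, and 380 kb among interactions in all 3 replicates, where the series gave 395 kb. The recurrence of the T-box interactions was not uniform over distance. Below 250 kb, 12 of 37 (32.4%) were in all 3 replicates, beside 40.4% of the series. Between 250 and 500 kb the count was 43 of 81 (53.1%), beside 34.5%, and between 500 and 1000 kb it was 6 of 17 (35.3%), beside 26.9%. Between 1000 and 2000 kb, 11 of 14 (78.6%) recurred, all of them of *TBX3*, beside 18.7%. Neighbouring fragments of 1 promoter are not independent, and none of these shares was tested.

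**Figure D1:**
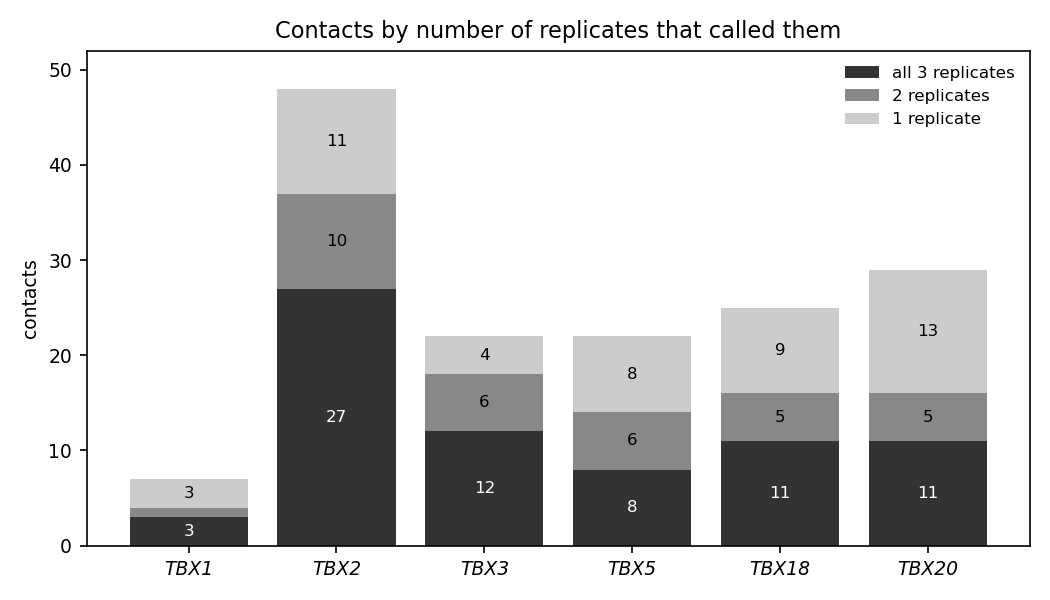
Recurrence of the interactions of the 6 T-box genes, as stacked bars of the number of interactions, or contacts (y axis), called in 3, 2 or 1 replicates for each gene (x axis). *TBX2* had 27 in all 3 replicates, *TBX3* 12, *TBX18* 11, *TBX20* 11, *TBX5* 8 and *TBX1* 3.

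*TBX2* had most interactions, with 39, 40 and 33 in replicates 1, 2 and 3 (37.3 ± 3.79, SD, n = 3). *TBX20* followed with 19, 17 and 20 (18.7 ± 1.53), *TBX18* with 18, 17 and 17 (17.3 ± 0.577), *TBX3* with 19, 17 and 16 (17.3 ± 1.53) and *TBX5* with 12, 13 and 19 (14.7 ± 3.79). *TBX1* had 5, 4 and 5 (4.67 ± 0.577). The counts of *TBX2* lay above those of every other member and those of *TBX1* below, while *TBX20*, *TBX18*, *TBX3* and *TBX5* overlapped as neighbours in this order. With 3 replicates against 3, a two-sided exact permutation test cannot go below p = 0.10, and none was run. Promoter fragments with 20 or more interactions made up 16.2% of all, and 5 of the 6 genes were among them in the union. *TBX5* and *TBX3* had 22 each, *TBX18* had 25, *TBX20* had 29 and *TBX2* had 48, while *TBX1*, with 7, was near the median of the series. In the calls on the merged replicates, *TBX5* had 12 interactions and *TBX20* 17, below 20 and below *TBX18* with 26 and *TBX3* with 28, so the place of *TBX5* and *TBX20* among the large promoters rests on the union. The promoter fragments differ in size, from 1065 bp for *TBX1* to 25462 bp for *TBX5*, and the part of size in these counts was not tested.

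**Figure D2:**
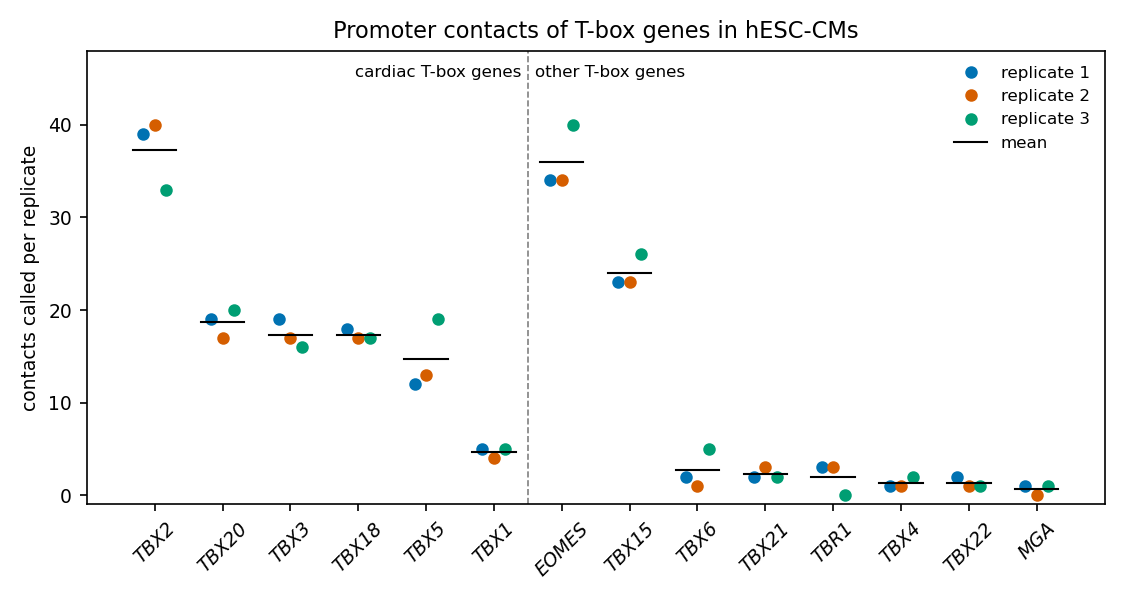
Interactions per replicate (y axis) of the 6 T-box genes and of the other T-box genes with listed interactions (x axis), with 1 point per replicate and a line at the mean of 3. *TBX2* sits at 33 to 40, *TBX1* at 4 to 5 and the 4 other cardiac genes at 12 to 20.

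The PIRs of each gene lay mostly on 1 side of its promoter. All 48 of *TBX2* and all 22 of *TBX3* were upstream with respect to transcription, and all 22 of *TBX5* and all 7 of *TBX1* downstream. *TBX18* had 23 downstream and 2 upstream, and *TBX20* had 27 upstream, 1 downstream and 1 on another chromosome. Every interaction in all 3 replicates kept to the main side of its gene. A single side was common among promoters with 20 or more interactions, of which 35.3% had all same-chromosome PIRs on 1 side, and 3 of the 5 T-box genes of that size did so.

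PIRs also clustered. They were grouped into blocks of PIRs whose midpoints follow each other at 25 kb or less, a distance chosen after the data were seen. The largest block held 71.4% of the same-chromosome interactions of *TBX1*, 70.8% of *TBX2*, 59.1% of *TBX3*, 40.9% of *TBX5*, 76.0% of *TBX18* and 82.1% of *TBX20*. The median over promoters with 20 or more interactions, which leave out *TBX1*, was 49.3% and the 90th percentile 84.0%. The largest block of *TBX1* held 5 PIRs, but 3 at a gap of 10 kb and 6 at 50 kb. At 10 and 50 kb the block held 28 and 34 PIRs for *TBX2*, 12 and 13 for *TBX3* and 8 and 11 for *TBX5*. It held 18 and 19 for *TBX18* and 20 and 25 for *TBX20*. No PIR was shared by any of the 6 genes. Of these, only *TBX3* and *TBX5* lie on the same chromosome, and nearly all interactions stayed on the chromosome of the gene. Little sharing was therefore possible, and its absence is not a trait of the genes. Of the 150 PIRs that were not listed promoter fragments themselves, 119 were called with no other promoter in the union. The same share over all interacting fragments of the series was not computed, so this count is not a trait of the T-box genes.

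**Figure D3:**
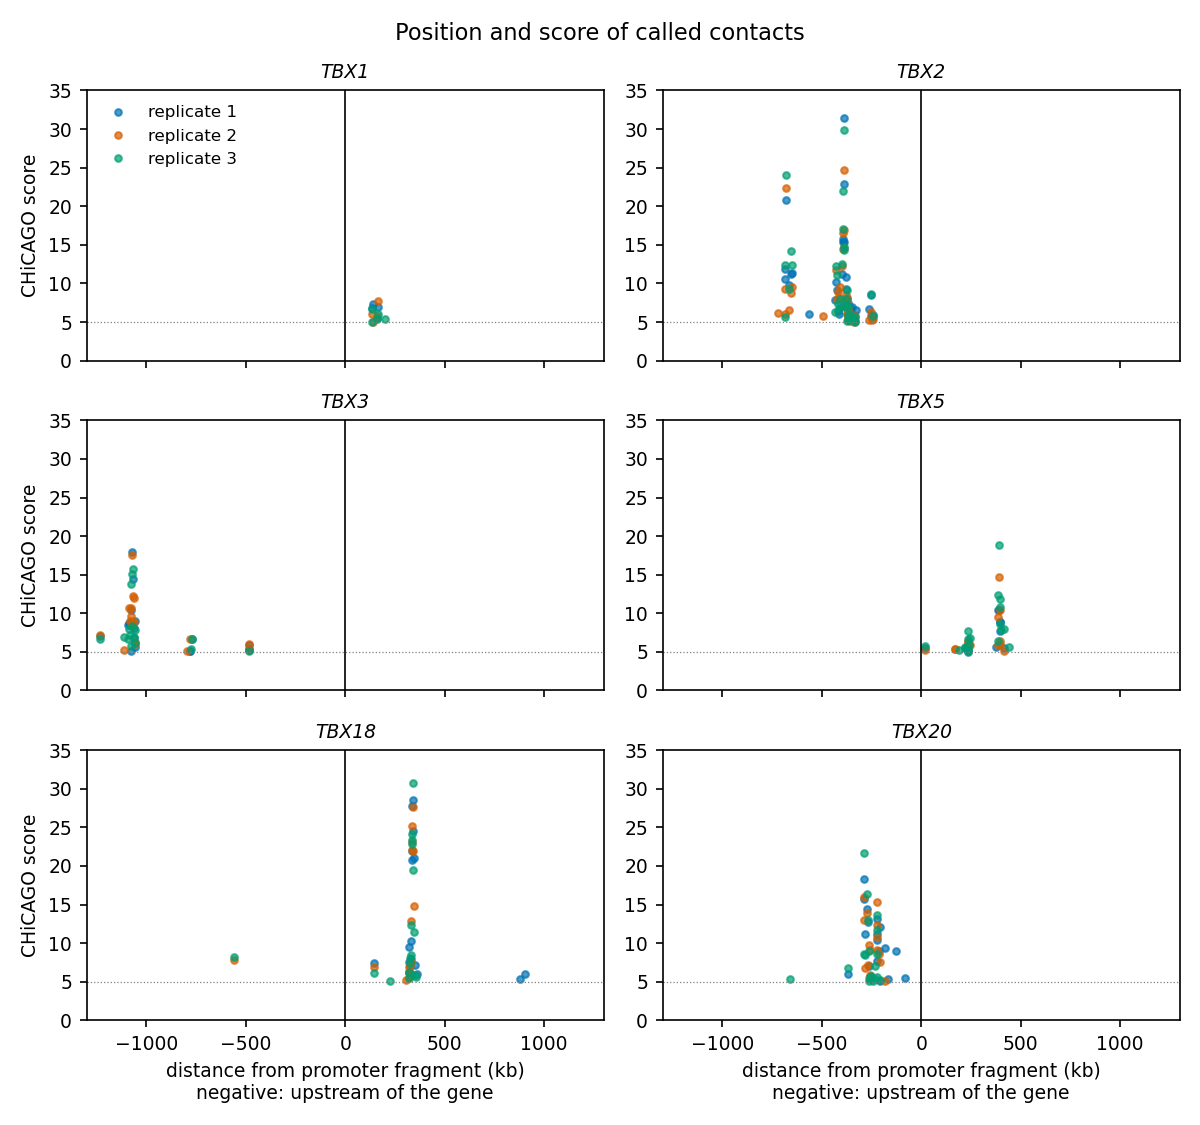
CHiCAGO score (y axis) of each interaction against the distance of its PIR from the promoter in kb (x axis, negative upstream, positive downstream of transcription), 1 panel per gene, with 1 point per replicate that called the interaction and colour for the replicate. The 4 interactions at 2049 kb or more or on another chromosome lie outside the axes. High scores gather far from the promoters, at 389 kb for *TBX2*, 341 kb for *TBX18*, 289 kb for *TBX20*, 392 kb for *TBX5* and 1072 kb for *TBX3*.

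*TBX2*, a repressor of the chamber programme, contacted only fragments inside *BCAS3*, the gene upstream of it, and 15 of its 48 PIRs overlapped protein-coding exons. The promoter fragment (chr17:59469602-59481577) also holds starts of *TBX2-AS1* and of 2 unnamed genes, so its interactions cannot be assigned to *TBX2* alone. Of the 48, 27 were in all 3 replicates (56.2%, Wilson interval 42.3 to 69.3%). The main block, chr17:59040092-59150741, spanned 111 kb at 326 to 433 kb from the promoter and took in 34 of the 47 HindIII fragments there, 19 of them in every replicate. Its highest PIR, chr17:59086016-59086606, scored 31.39, 24.66 and 29.91 (28.7 ± 3.54, n = 3). The adjacent fragment chr17:59085640-59086015 scored 22.9, 16.93 and 14.67 (18.2 ± 4.25). These values did not overlap in the 3 replicates.

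A separate block of *TBX2*, chr17:58789773-58825175, lay 652 to 686 kb away, near the start of *BCAS3*. All 6 of its PIRs were called in every replicate. The highest, chr17:58795495-58798367, overlaps an exon of *BCAS3* and scored 20.82, 22.36 and 24.0 (22.4 ± 1.59), below all 3 scores of the top PIR at 389 kb. At 686 kb, the farthest PIR found in all replicates, chr17:58789773-58790156, scored 11.88, 9.28 and 12.44. A nearer group of 5 PIRs at 243 to 262 kb had 2 in every replicate. The space between the blocks held 1 interaction at 563 kb and 1 at 496 kb, each in a single replicate at scores of 6.08 and 5.78. The interactions of *TBX2* thus fell in separate stretches of 1 neighbouring gene, with the strongest scores neither nearest nor farthest.

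*TBX3*, close relative of *TBX2* and a repressor in the conduction system, had the longest contacts of the 6, with a median of 1060 kb. All 22 PIRs were upstream, 14 in no annotated gene and 8 in lncRNA genes only. The promoter fragment (chr12:115119071-115123605) also holds a start of *TBX3-AS1*. In all 3 replicates 12 were called (54.5%, 34.7 to 73.1%), and 10 of these fell in 1 block of 57.1 kb, chr12:116176250-116233341, at 1056 to 1111 kb. The PIR chr12:116192179-116193808, which holds the start of a lncRNA gene (ENSG00000257781), scored 17.96, 17.56 and 15.1 (16.9 ± 1.55). Beside it, chr12:116185564-116192178 scored 14.4, 12.26 and 15.75 (14.1 ± 1.76), so that the ranges overlapped. The third, chr12:116196166-116197526, scored 10.45, 10.68 and 13.8 (11.6 ± 1.87).

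Nearer to *TBX3*, at 481 kb, chr12:115600825-115604711 was the closest PIR called in every replicate. A group of 5 PIRs at 769 to 797 kb had none in all 3 replicates. Beyond the main block, chr12:116348106-116357436 at 1231 kb scored 7.11, 7.16 and 6.73 and was the farthest PIR that any of the 6 genes had in all replicates. The summed scores of the main block were 111.67, 116.8 and 108.29 in replicates 1, 2 and 3. Such sums even out the differences between fragments and do not show that each contact was steady.

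*TBX5*, an activator of chamber genes, had PIRs only on the downstream side of its promoter fragment, 20 of 22 in no annotated gene. Its promoter fragment is the largest of the 6 (chr12:114831466-114856927) and holds all 5 annotated starts of *TBX5* and starts of *TBX5-AS1*. In all 3 replicates 8 interactions were called (36.4%, 19.7 to 57.0%). The block chr12:114429019-114472712, at 378 to 415 kb, held 9 PIRs, 6 of them in every replicate. In it, chr12:114449903-114454797 scored 10.41, 14.72 and 18.89 (14.7 ± 4.24), with replicate 3 highest and replicate 1 lowest. The next, chr12:114454798-114457737, scored 10.42, 9.48 and 12.32 (10.7 ± 1.45), and chr12:114448149-114449583 scored 8.83, 10.4 and 10.88 (10.0 ± 1.07). The scores of these PIRs overlapped. The farthest PIR in every replicate, chr12:114429019-114429861 at 415 kb, scored 5.49, 5.13 and 7.96.

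A nearer block of *TBX5*, chr12:114596022-114625947 at 219 to 247 kb, differed between the libraries. It had 4 interactions in replicate 1, 3 in replicate 2 and 8 in replicate 3, with summed scores of 21.85, 18.6 and 48.47, and 1 was in every replicate. Replicate 3 was the highest for these 2 blocks, whereas a nearer group of 3 PIRs at 168 to 188 kb had summed scores of 10.85 in replicate 2 and 5.24 in replicate 3 and none in replicate 1. The reason was not tested. The interaction chr12:114824487-114830168, 17 kb from the promoter fragment between midpoints, scored 5.50, 5.20 and 5.71 and was the 1 interaction of any T-box gene inside its own gene (0.654%, Wilson interval 0.115 to 3.61%). Over the series, 4.30% of interactions lay in a gene that starts in the promoter fragment. Replicate 3 also held a contact with the promoter fragment of *RBM19*, chr12:114399493-114405026, at 442 kb with a score of 5.65.

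*TBX18*, a factor of the sinus venosus and the epicardium, had 25 interactions, 11 of them in all 3 replicates (44.0%, 26.7 to 62.9%). The block chr6:85113380-85169625, at 305 to 360 kb downstream, held 19 of them within 56.2 kb. Its top PIR, chr6:85132358-85134629, scored 28.58, 27.61 and 30.78 (29.0 ± 1.62), the highest mean of any T-box interaction. The small fragment chr6:85136098-85136430 followed with 27.79, 25.13 and 23.37 (25.4 ± 2.23), and chr6:85136431-85138156 with 20.72, 23.06 and 24.09 (22.6 ± 1.73). The first and second overlapped, as replicate 1 of the second exceeded replicate 2 of the first, and so did the top PIRs of *TBX18* and *TBX2*. The farthest PIR in every replicate, chr6:85128146-85132357 at 344 kb, varied more, with 20.98, 14.76 and 11.39.

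Outside this block, chr6:85328243-85329451 at 146 kb was the 1 other *TBX18* PIR in every replicate, with scores of 7.41, 6.94 and 6.08. Upstream, chr6:86033208-86033359 at 559 kb was called in replicates 2 and 3, at 7.80 and 8.24. With the promoter of *CEP162*, a centrosomal gene, that PIR scored 12.08, 15.23 and 15.19, against a different background. Replicate 1 alone held a contact at 906 kb with the fragment chr6:84567138-84570613, which overlaps *CYB5R4* and *RIPPLY2*, at a score of 5.94.

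*TBX20*, an activator of chamber genes and partner of TBX5, had 29 interactions, of which 11 were in all 3 replicates (37.9%, 22.7 to 56.0%). All 11 were upstream in a single block, chr7:35457939-35578283, and overlapped no annotated gene. The block spanned 120 kb at 169 to 289 kb and took in 23 of 31 HindIII fragments. The small fragment at its far edge, chr7:35578100-35578283, scored 15.76, 15.92 and 21.74 (17.8 ± 3.41). In the large fragment next to it, chr7:35570041-35578099, the scores were 18.33, 13.05 and 8.54 (13.3 ± 4.90), so that adjacent fragments ranked in opposite orders across the replicates. A steadier PIR, chr7:35558368-35568037, scored 14.39, 13.93 and 16.38 (14.9 ± 1.30). The summed scores of the block were 162.76, 155.93 and 161.03. A sum over many fragments evens out the differences of single ones, so these sums do not show that the block was steady.

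Of the *TBX20* interactions, 13 were called once. The highest were chr7:35494562-35496531 with 12.1 and chr7:35470576-35471471 with 9.37, both in replicate 1 and inside the main block. Others were chr7:35416216-35416680 at 128 kb, with 8.97 in replicate 1, and a contact with a fragment of chromosome 6 in *TENT5A*, with 5.70 in replicate 2.

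*TBX1*, a factor of outflow tract progenitors, had the fewest interactions, through a fragment (chr22:19743981-19745045) that lacks its main start. Whether a fragment with that start was captured is not known here. Its 7 PIRs were downstream, and 3 were in all replicates (42.9%, 15.8 to 75.0%). These 3 lay at 135 to 166 kb in *TXNRD2*, which encodes a mitochondrial thioredoxin reductase, in a block of 35.9 kb (chr22:19876378-19912303). The fragment chr22:19908157-19912303 scored 6.94, 7.78 and 6.08 (6.93 ± 0.850). The fragment chr22:19879749-19879942 scored 6.88, 6.08 and 6.70 (6.55 ± 0.420), and chr22:19901123-19908156 scored 5.48, 5.72 and 5.42 (5.54 ± 0.159). All were near the lowest score listed.

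**Figure D4:**
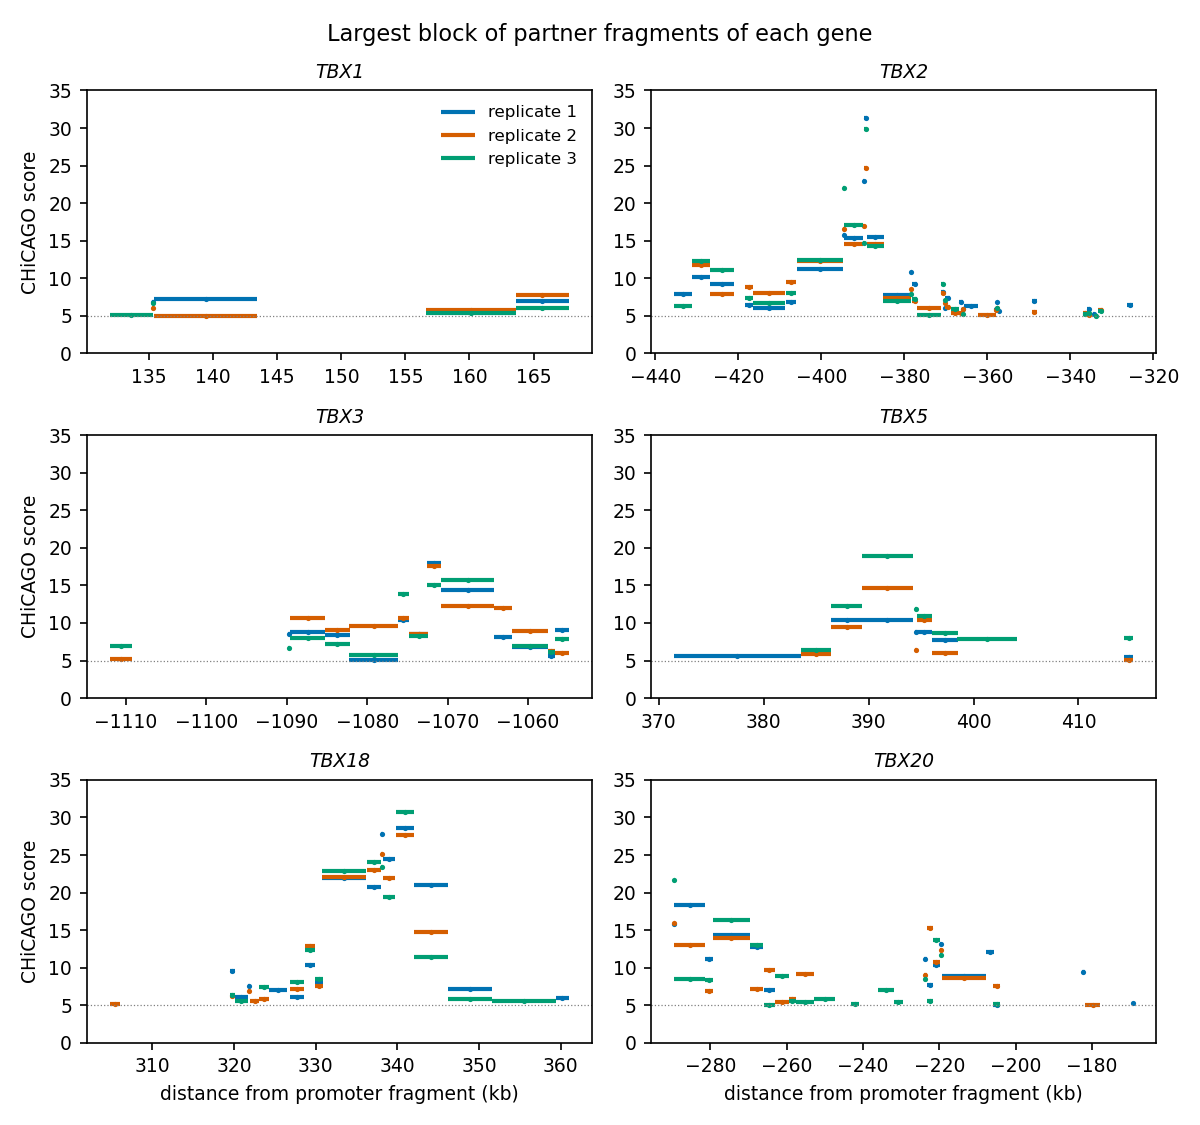
CHiCAGO scores of the PIRs in the largest block of each gene, with each HindIII fragment drawn as a line over its extent (x axis, distance from the promoter fragment in kb, negative upstream) at its score (y axis), coloured by replicate. The blocks of *TBX2* and *TBX18* reach scores near 30, that of *TBX1* stays below 8.

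Few of the PIRs held another promoter. A promoter-holding fragment was the partner in 13 of 153 interactions (8.50%, Wilson interval 5.03 to 14.0%), beside 19.2% over the series, and 3 of the 13 were fragments that had interactions of their own as promoters. In all 3 replicates there were 7, none of them with a fragment listed as a promoter. One was the lncRNA start in the *TBX3* block, 1 a start of *TXNRD2* in that of *TBX1*, 1 of the pseudogene *SMARCE1P2* in that of *TBX18*, and 4 were in the *BCAS3* blocks of *TBX2*. The *SMARCE1P2* fragment, chr6:85138157-85143521, scored 21.97, 22.07 and 22.83 with *TBX18*. For *TBX2*, chr17:58798397-58819471, with a start of the pseudogene *RPL36AP46*, scored 9.86, 6.61 and 9.27. The 3 others hold internal starts of *BCAS3* transcripts. Of these, chr17:59069602-59080707 scored 11.18, 12.30 and 12.47, above chr17:59059246-59066980 with 6.06, 8.10 and 6.67 and chr17:59090595-59097234 with 7.72, 7.41 and 7.00 in each replicate. No interaction joined any of the 6 promoters to another or to a further T-box gene. Among T-box genes with listed interactions, the same-chromosome pairs that include a member were *TBX2* with *TBX4*, *TBX2* with *TBX21*, and *TBX3* with *TBX5*.

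*TBX3* and *TBX5* are neighbours on chromosome 12, with 277 kb between the midpoints of their promoter fragments, and their PIRs pointed away from each other. None of their 44 interactions fell in the 262 kb between the fragments. Other promoters did contact that interval, with 16 interactions to 13 of its fragments, 3 of them in all replicates. *TBX2* and *TBX4*, a limb and lung factor 57 kb away, were not called together either. Of the 4 fragments contacted by *TBX4*, 3 were also contacted by *TBX2*, but no interaction of *TBX4* was in all 3 replicates. A listed promoter fragment was among these 3, and *TBX2* contacted it in replicate 2 only, at a score of 6.19.

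The distant block of *TBX3* was shared with *RBM19*, which encodes an RNA-binding protein of ribosome assembly and starts on the far side of *TBX5*. The genes named as sharing PIRs were chosen after their values were seen. *RBM19* had 13, 16 and 19 interactions in replicates 1, 2 and 3, 30 in the union and 5 in all replicates. The shared PIRs numbered 12, which were 54.5% of those of *TBX3* and 40.0% of those of *RBM19*, and 4 were in all replicates for both. At chr12:116192179-116193808, the top PIR of *TBX3*, *RBM19* scored 12.46, 10.36 and 5.50 from 1791 kb away, below *TBX3* in each replicate. At chr12:116196166-116197526, *RBM19* scored 8.96, 10.55 and 7.66. At chr12:116348106-116357436 the order was the other way round, with 11.25, 10.56 and 9.31 for *RBM19*, all above the scores of *TBX3*. Scores with *TBX3* and with *RBM19* have different backgrounds, so their order does not rank the strength of the contacts. *MED13L*, a Mediator subunit gene beyond the block, shared no PIR with *TBX3*.

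**Figure D5:**
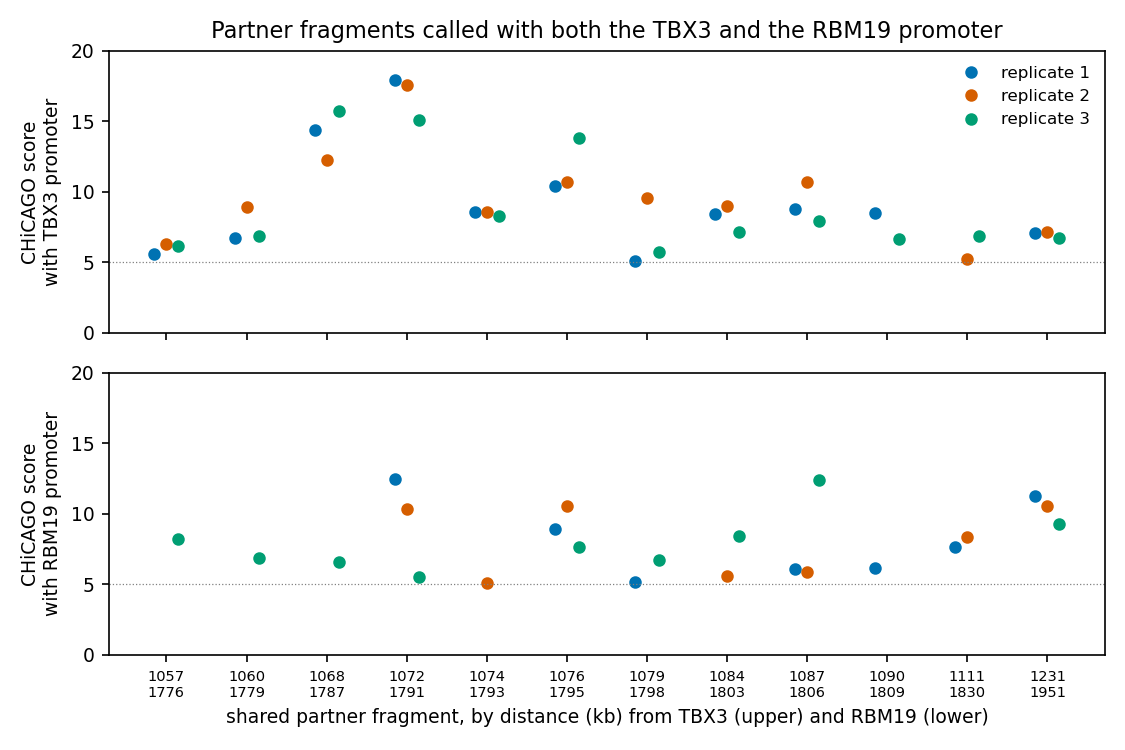
CHiCAGO scores (y axis) of the 12 PIRs shared by *TBX3* and *RBM19*, 1 point per replicate in which the interaction was called, labelled on the x axis by distance in kb from *TBX3* (upper) and from *RBM19* (lower). *TBX3* scored higher at 1072 kb, 17.96, 17.56 and 15.1 against 12.46, 10.36 and 5.50, and lower at 1231 kb. The scores of the promoters have different backgrounds.

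The other genes shared fewer PIRs, though not always a smaller share of their PIRs. *TBX1* shared 5 PIRs with *GP1BB*, a platelet receptor gene adjacent to it, 71.4% of the PIRs of each, but *GP1BB* had none of them in all replicates. *TBX2* shared 6 with the promoter fragment of *NACA2* and *AC002994.1* (12.5% of the PIRs of *TBX2* and 54.5% of its own). At chr17:58795495-58798367 that fragment scored 5.04, 6.16 and 5.89 from 873 kb away, and *TBX2* scored 20.82, 22.36 and 24.0 from 679 kb away. *TBX5* shared 1 PIR, with *SNORD56*.

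Of 11 further T-box genes, 8 had a promoter fragment with listed interactions. *EOMES*, an early mesendoderm factor, had 34, 34 and 40 interactions (36.0 ± 3.46, n = 3), within the range of *TBX2*, and 32 of 43 in all replicates. *TBX15*, a factor of skeletal development, had 23, 23 and 26 (24.0 ± 1.73), above *TBX20* in every replicate, and 10 of 40 in all replicates. The 6 others, *TBX4*, *TBX6*, *TBX21*, *TBX22*, *TBR1* and *MGA*, had 2 to 7 interactions in the union and none in all replicates. High counts in these cells were thus not limited to the cardiac members, and *TBX1* was the 1 cardiac member with as few as the family's lower group.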

How the data were processed

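The authors mapped PCHi-C reads of 3 biological replicates of hESC-CMs with HiCUP to GRCh37 and scored fragment pairs with CHiCAGO under its default settings. Each deposited value is a CHiCAGO score for a pair of HindIII fragments, printed to 2 decimals, with a lowest value of 5. Scores were given per replicate and for the merged replicates, and no score was recomputed. Read counts and depth were not analysed here, so intervals cover counting error only. Members and gene lists were chosen with earlier results of these data known.

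An interaction was an unordered pair of fragments in the union of the 3 replicates, matched on identical coordinates. Genes and transcript starts came from GENCODE release 44 on GRCh37. A fragment held a promoter if it was listed in the promoter column of any replicate or held an annotated start. For each gene, the 3 PIRs with the highest mean score, the farthest PIR, promoter-holding PIRs (all among interactions in 3 replicates) and contacts with other T-box genes were named. PIRs and genes outside this rule were chosen after their values were seen. Python 3.11.15, numpy 2.4.6, pandas 2.3.3, scipy 1.17.1 and matplotlib 3.10.9 were used, and the counting was tested on simulated data. No group was compared and no test was run. Alternatives were scores of at least 7 and 10, each replicate left out, the merged calls, promoter-first lines, protein-coding starts, same-chromosome interactions and, added after seeing the data, block gaps of 10 and 50 kb. The promoter sequences of the other genes are not reported here.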

Additional observations from a re-analysis of the deposited data

How the results depend on the processing

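The number of interactions, 153 in the union, was 81 at scores of at least 7 and 40 at scores of at least 10. The share in every replicate used, 47.1%, was 57.5% at scores of at least 10, and 57.4 to 63.9% with 1 replicate left out, where only 2 replicates had to hold an interaction. The median distance of 357 kb became 378 kb at scores of at least 7 and 389 kb at scores of at least 10. The share with a promoter-holding partner, 8.50%, was 9.88% at scores of at least 7 and 7.33% in the merged calls. The own-gene interaction of *TBX5* was not listed at scores of at least 7. At scores of at least 10, *TBX2* kept the most interactions with 14, *TBX20* had 10, *TBX18* 7, *TBX3* 5, *TBX5* 4 and *TBX1* 0. No paired analysis was possible because the 3 replicates form 1 group. Scores below 5 are not listed and read depth is unknown, so weak interactions cannot be told from absent ones, and 1 cell line and protocol were sampled.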

Other observations

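The calls on the merged replicates treated the T-box genes unequally. *TBX2* had 61 interactions in the merged calls and 48 in the union, and *TBX3* had 28 and 22, whereas *TBX5* had 12 and 22 and *TBX20* had 17 and 29. *TBX18* had 26 and 25, and *TBX1* had 6 and 7. The series as a whole had fewer in the merged calls, with 152757 against 200587 in the union. All 72 interactions found in every replicate were also in the merged calls, as were 30 of the 33 found in 2 replicates and 24 of the 48 found in 1. Over the series, 48067 of the 48209 interactions found in every replicate were in the merged calls. The series shares for interactions found in 2 replicates or in 1 were not computed.

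For interactions in every replicate, the merged score divided by the mean replicate score had a median of 1.61 for *TBX2* (range 1.37 to 1.67), 1.50 for *TBX18*, 1.45 for *TBX3* and 1.43 for *TBX1*. It was 1.07 for *TBX5* (0.996 to 1.10) and 1.03 for *TBX20* (0.964 to 1.10), so that merging raised the scores of these genes little. The median over 48067 interactions of the series was 1.40. Among 2098 promoter fragments with at least 8 such interactions, the 5th percentile was 1.01 and the 95th 1.69, which places *TBX5* and *TBX20* near the lower end. The promoter fragments of *TBX5* and *TBX20* are 25462 and 11177 bp long, and that of *TBX2* is 11976 bp. The part of fragment length in this ratio was not tested.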
